A study of Mus musculus with 22 samples.

Results

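Chemokine and interleukin genes and their receptors were followed at their transcription start sites in mouse neural progenitor cells (NPC) and embryonic stem cells (ESC). They were chosen by gene symbol alone, as the rows named Ccl, Cxcl, Ccr, Cxcr or Il with a number and, for interleukins and their receptors, the usual suffix letters. This gave 109 of 24467 start-site windows, each 5000 bp long and centred on 1 annotated start site. There were 19 CC chemokine ligands, 10 CC receptors, 13 CXC ligands, 6 CXC receptors, 30 interleukins and 31 interleukin receptors. No measured value entered the symbol rule.

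The NPC were made from C57BL/6 ESC by 72 h in serum-free N2B27 medium with bFGF at 10 ng/mL, and then 48 h with 500 nM of SAG, which activates Hedgehog signalling. The ESC were kept in N2B27 medium with LIF at 100 U/mL, CHIR99021 at 3 µM and PD0325901 at 1 µM, a combination that holds them in a naive pluripotent state. All libraries analysed came from these cells, so NPC and ESC share their parental line. Each cell type was profiled by CUT&RUN, where a nuclease brought to chromatin by an antibody cuts out the bound DNA, with antibodies to SUZ12, MTF2, JARID2, H3K27me3 and H3K4me3. There were 2 libraries per antibody and cell type, described by the series as biological replicates, and 1 library per cell type with non-specific IgG as the background.

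Chemokines are small secreted proteins that steer the migration of leukocytes through G-protein-coupled receptors of the Ccr and Cxcr families. Interleukins are cytokines by which leukocytes and epithelia signal, mostly through paired receptor chains that activate JAK kinases and STAT factors. Most of these genes are used by blood cells or barrier tissues. The ligand Cxcl12 and its receptor Cxcr4 are a known exception, since this axis also guides migrating neurons and progenitors in the embryo. H3K4me3 marks the start sites of active and poised genes. H3K27me3 is the product of the Polycomb complex PRC2, of which SUZ12 is a core subunit, while MTF2 and JARID2 are accessory subunits of the forms PRC2.1 and PRC2.2.

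Total counts over the windows were 448667 to 857691 for SUZ12, 439379 to 832117 for MTF2, 339591 to 492529 for JARID2, 647615 to 1569812 for H3K27me3 and 3264267 to 8425292 for H3K4me3, and the IgG libraries held 667898 counts in NPC and 298458 in ESC. Levels are given as CPM, the counts in a window per 1000000 counts of the library over all windows, so that 3 counts equal 0.356 CPM in the deepest library and 10.05 CPM in the shallowest. Reads copied by PCR are not independent, so such floors cover counting error only. As a check of the labels, H3K4me3 was higher in NPC at 6 of 6 NPC marker genes and lower in NPC at 5 of 6 ESC marker genes. None of 14 leukocyte marker genes had H3K4me3 above IgG, and their medians were 3.28 CPM in NPC and 3.40 CPM in ESC. The NPC H3K27me3 libraries stood apart from each other, with a chi-square per degree of freedom of 6.80 between them, against 1.00 to 2.18 for the other replicate pairs. The JARID2 libraries of NPC differed by no more than sampling noise (1.00). Of the 109 windows, 12 overlap the window of another gene and can share its reads, namely Ccl9, Ccr10, Cxcl9, Cxcl16, Il1b, Il1r2, Il2rg, Il10ra, Il11, Il18, Il25 and Il27ra. Il11ra2 had no count in any library.

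The promoters below are shown because their genes mark the range of the data. Cxcr4, Cxcl12 and Il15ra had the highest H3K4me3 of NPC replicate 1 among the members, whereas Il22 and Ccl1 had next to none and lost H3K27me3 in NPC. Each line gives the 250 bases before the RefSeq start site (GRCm38.p6), written 5′ to 3′ on the gene's strand, with CG dinucleotides in capitals.
Cxcr4 (chr1:128592300-128592549, minus strand): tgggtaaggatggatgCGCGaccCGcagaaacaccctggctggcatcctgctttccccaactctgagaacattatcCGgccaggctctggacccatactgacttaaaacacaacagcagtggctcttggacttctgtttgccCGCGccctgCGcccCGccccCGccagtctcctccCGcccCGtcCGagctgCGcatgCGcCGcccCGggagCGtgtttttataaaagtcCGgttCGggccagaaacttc
Cxcl12 (chr6:117168285-117168534, plus strand): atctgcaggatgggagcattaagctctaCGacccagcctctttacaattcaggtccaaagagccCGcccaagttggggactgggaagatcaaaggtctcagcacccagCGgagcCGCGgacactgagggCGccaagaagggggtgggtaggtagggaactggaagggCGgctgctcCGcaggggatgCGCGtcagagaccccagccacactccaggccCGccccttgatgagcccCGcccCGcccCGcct
Il15ra (chr2:11705462-11705711, plus strand): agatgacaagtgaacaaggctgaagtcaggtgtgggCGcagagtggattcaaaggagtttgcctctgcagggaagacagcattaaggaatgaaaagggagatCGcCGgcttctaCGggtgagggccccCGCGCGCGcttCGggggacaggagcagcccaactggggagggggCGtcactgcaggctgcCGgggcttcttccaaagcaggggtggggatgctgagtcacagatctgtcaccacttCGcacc
Il22 (chr10:118204714-118204963, plus strand): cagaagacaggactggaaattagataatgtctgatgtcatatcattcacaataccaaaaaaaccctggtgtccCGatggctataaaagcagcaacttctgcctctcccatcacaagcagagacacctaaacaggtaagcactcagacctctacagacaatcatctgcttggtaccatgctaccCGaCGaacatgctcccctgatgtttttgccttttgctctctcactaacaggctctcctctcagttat
Ccl1 (chr11:82179813-82180062, minus strand): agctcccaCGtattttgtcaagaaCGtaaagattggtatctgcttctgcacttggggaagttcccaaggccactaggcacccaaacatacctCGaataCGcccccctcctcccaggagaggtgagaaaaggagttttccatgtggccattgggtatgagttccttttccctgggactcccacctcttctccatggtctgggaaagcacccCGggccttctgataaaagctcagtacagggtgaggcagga

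The stretch held 19 CG dinucleotides at Cxcr4, 14 at Cxcl12 and 12 at Il15ra, against 3 at Il22 and 5 at Ccl1. In windows of 300 bases that also take 50 bases after the start, the counts were 20, 20 and 15 against 4 and 7, where the median of 16623 promoters was 13 with quartiles of 4 and 24. Of the letters searched on both strands in these windows, TATAAA stood in Cxcr4 and Il22 (13.2% of all promoters) and GGGCGG in Cxcr4 and Cxcl12 (46.4%). These genes were picked for their values, and 72 of the 109 members (66.1%) had a RefSeq promoter within 100 bp of the deposited start site, so the letters describe single genes and no share was taken over the members.

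H3K4me3 was low at most genes of this group in both cell types. Its median over the 109 windows was 3.01 CPM in NPC and 3.73 CPM in ESC, where the median of all windows was 23.5 CPM in NPC and 25.4 CPM in ESC. In both cell types 97 members lay below the median of all windows, and 60 members stayed under 5 CPM. The 3 members with H3K4me3 above IgG in NPC (a log2 fold of at least 1 at an adjusted p below 0.05) were Cxcr4, Il15ra and Il7, where 38.9% of all windows passed. Cxcr4 was the only one above IgG in ESC, where 36% of all windows passed. This count rests on the scaling: with factors taken from background windows 25 members passed in NPC and 26 in ESC, 33 in either, against 61.1% and 62% of all windows. Leaving out either 1 of the NPC libraries left 2 members in NPC, and leaving out ESC replicate 1 left 0 in ESC. Under both scalings the share of members marked was below that of all windows.

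At many of the best-known inflammatory genes the level was close to 0. Ccl5, an attractant of T cells, had 2.76 and 2.49 CPM of H3K4me3 in NPC and 2.85 and 2.21 CPM in ESC. Il2, the growth factor of T cells, had 1.84 and 1.19 CPM in NPC and 1.11 and 1.93 CPM in ESC. The groups overlapped at both genes. Il6, a cytokine of the acute phase, had 5.82 and 2.26 CPM in NPC and 4.43 and 3.31 CPM in ESC (log2 -0.13, edgeR adjusted p = 0.87). The receptor chain Il10rb lay higher, with 32.8 and 30.3 CPM in NPC and 31.5 and 31.8 CPM in ESC (log2 -0.04, edgeR adjusted p = 0.81).

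Cxcr4, the receptor of Cxcl12, had 145.8 and 162.6 CPM of H3K4me3 in the NPC libraries, against 60.3 and 49.2 CPM in the ESC libraries. Both NPC values lay above both ESC values, at a log2 NPC over ESC of 1.46 ± 0.09 (SE, edgeR adjusted p = 3.5e-60), which placed Cxcr4 higher than 97.9% of all windows in NPC and 69.1% in ESC. Cxcl12 itself had 58.2 and 50.7 CPM in NPC and 35.3 and 32.9 CPM in ESC, a log2 difference of 0.61 ± 0.11 (edgeR adjusted p = 3.7e-08). The ligand thus moved in the same direction as its receptor, with a smaller difference, and its log2 value over IgG in NPC, 0.92 ± 0.45, missed both thresholds (edgeR adjusted p = 0.054).

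Il15ra, the receptor chain that presents IL-15 to neighbouring cells, had 47.8 and 39.8 CPM of H3K4me3 in NPC against 13.13 and 12.98 CPM in ESC (log2 1.68 ± 0.15, edgeR adjusted p = 2.0e-29). Il7, a growth factor of developing lymphocytes, had 41.4 and 40.7 CPM in NPC and 30.2 and 35.1 CPM in ESC (log2 0.33 ± 0.12, edgeR adjusted p = 0.0079). The groups did not overlap at either gene, and the difference was the smaller one at Il7. Il4ra, the chain shared by the IL-4 and IL-13 receptors, had 43.8 and 38.5 CPM in NPC against 18.8 and 16.3 CPM in ESC (log2 1.15 ± 0.14, edgeR adjusted p = 2.4e-16).

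**Figure D1:**
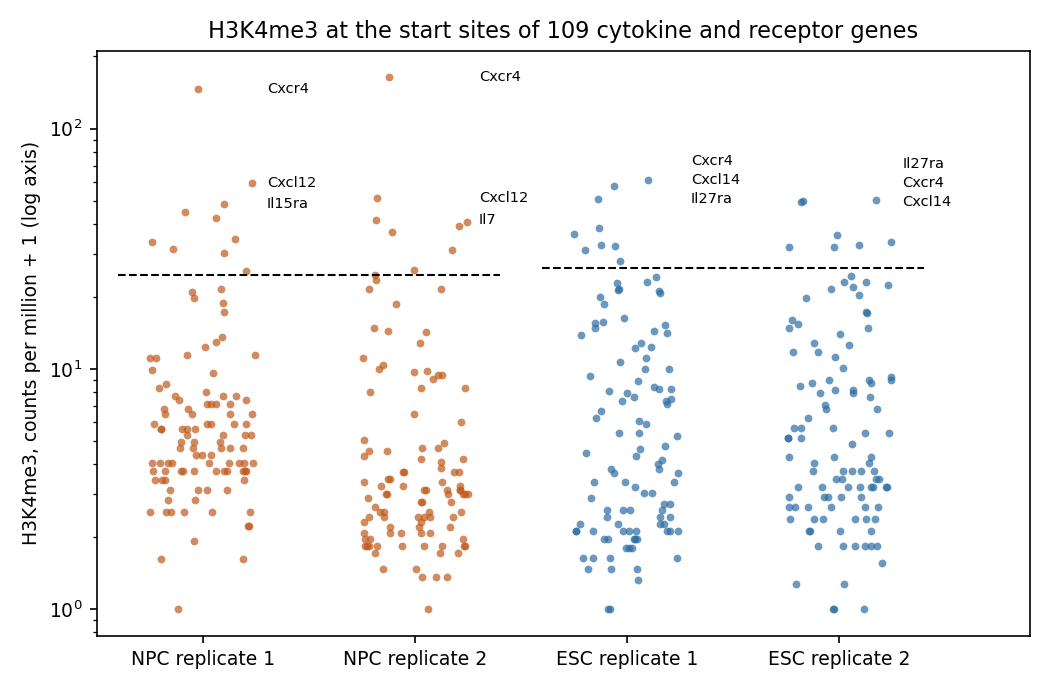
H3K4me3 at the 109 start-site windows in each library, in CPM plus 1 on a log axis, with 1 point per gene, NPC in orange, ESC in blue, the 3 highest genes of each library named beside their points and a dashed line at the median of all windows (23.5 CPM in NPC, 25.4 CPM in ESC). Most points lie under the line in every library, and Cxcr4 stands clear of the others in NPC at 145.8 and 162.6 CPM.

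Of the 81 members with enough counts for the comparison, H3K4me3 was higher in NPC at 9 and lower at 23, where 26.7% and 29.2% of all windows tested were called. The member shares were 11.1% higher and 28.4% lower, so calls toward NPC were the fewer by share and calls toward ESC lay near the background. The 28 untested members had too few counts. The other rises, beside those above, included the decoy receptor Il1r2 (19.9 and 20.5 CPM in NPC, 6.6 and 7.7 CPM in ESC, log2 1.505 ± 0.218, edgeR adjusted p = 3.0e-11) and Cxcl16, a membrane-bound chemokine (17.8 and 13.8 CPM in NPC, 7.9 and 9.1 CPM in ESC, log2 0.83 ± 0.23, edgeR adjusted p = 0.00089). Both of these windows overlap a neighbour.

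Leaving out ESC replicate 1 reduced the falls to 13. Among the 23 falls, 16 members had a mean under 10 CPM in NPC and 6 of the 23 were under 10 CPM in ESC as well. Il27ra, a receptor chain of the IL-6 and IL-12 family, had 11.9 and 8.8 CPM in NPC against 49.8 and 49.7 CPM in ESC (log2 -2.37 ± 0.15, edgeR adjusted p = 3.0e-56). Its window overlaps that of Rln3, so the reads cannot be assigned to one of them. Il23a, a subunit of IL-23, had 6.4 and 3.9 CPM in NPC and 21.99 and 20.99 CPM in ESC (log2 -2.22 ± 0.24), and the IL-22 receptor chain Il22ra1 had 6.1 and 3.6 CPM in NPC and 19.6 and 20.4 CPM in ESC (log2 -2.21 ± 0.25). Cxcr3 fell by 2.50 ± 0.37 and the cytokine gene Il17b by 2.20 ± 0.36 on the log2 scale, and the Il17b fall was not called by DESeq2 or without ESC replicate 1. Cxcl14, a chemokine of epithelia, had 29.4 and 23.5 CPM in NPC and 56.5 and 48.3 CPM in ESC (log2 -1.09 ± 0.11, edgeR adjusted p = 6.9e-21). Of the leukocyte markers, 12 were tested for H3K4me3 and 4 fell in NPC.

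H3K27me3 was widespread over the group in ESC and much lower in NPC. The median over the members was 22.5 CPM in NPC and 60.9 CPM in ESC, where the median of all windows was 20.5 CPM in NPC and 20.4 CPM in ESC. Above IgG were 19 members in NPC and 54 in ESC, against 15.1% and 22.5% of all windows. The mark was above IgG in both cell types at 15 members, in ESC alone at 39, in NPC alone at 4 and in neither at 51, and calls in 1 cell type alone are no test of the difference. That difference was tested per gene: of 106 members tested, 60 fell and 3 rose in NPC, where 23.5% and 22.9% of all windows tested were called lower and higher. The members' median log2 NPC over ESC was -0.93, against 0.12 over all windows, and 84 of the 106 lay below 0.

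The 60 falls ran from -0.73 to -2.23 with a median of -1.42 on the log2 scale. Over these 60 genes the median level was 29.4 and 18.8 CPM in the NPC libraries, against 71.5 and 71.0 CPM in the ESC libraries, while IgG had medians of 41.9 CPM in NPC and 45.2 CPM in ESC. CPM of H3K27me3 and of IgG are not on a common scale. With the scaling of the calls over IgG, the median log2 over IgG of all tested members was 0.14 in NPC and 1.18 in ESC. Leaving out ESC replicate 1 reduced the falls to 28 of 107, and DESeq2 called 36 of 89, so the number of falls depends on the libraries and the tool. Among the 12 overlapping windows 4 fell, and 56 of the 94 tested members outside them did.

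The H3K27me3 counts at genes without the mark also differed. At 6 housekeeping genes, none of them above IgG, the median H3K27me3 was 27.7 and 14.7 CPM in the NPC libraries, against 4.1 and 8.5 CPM in the ESC libraries, and 5 of 5 tested were called higher in NPC. The member median of 29.9 and 17.2 CPM in NPC lay close to that of the housekeeping genes, whereas the member median of 61.1 and 57.1 CPM in ESC lay far above it. The part of this difference in the falls was not tested. Other scalings moved the median of all windows from 0.12 to -0.05 (library totals) and -0.64 (background windows), and the members' median minus that of all windows was -1.05 in the main setting, -1.10 and -1.05. It was -0.447 with a minimum count of 30, where 80 members were tested. A change of scaling shifts all windows by nearly the same amount. The difference was thus nearly fixed in advance across scalings and is no check of the falls.

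**Figure D2:**
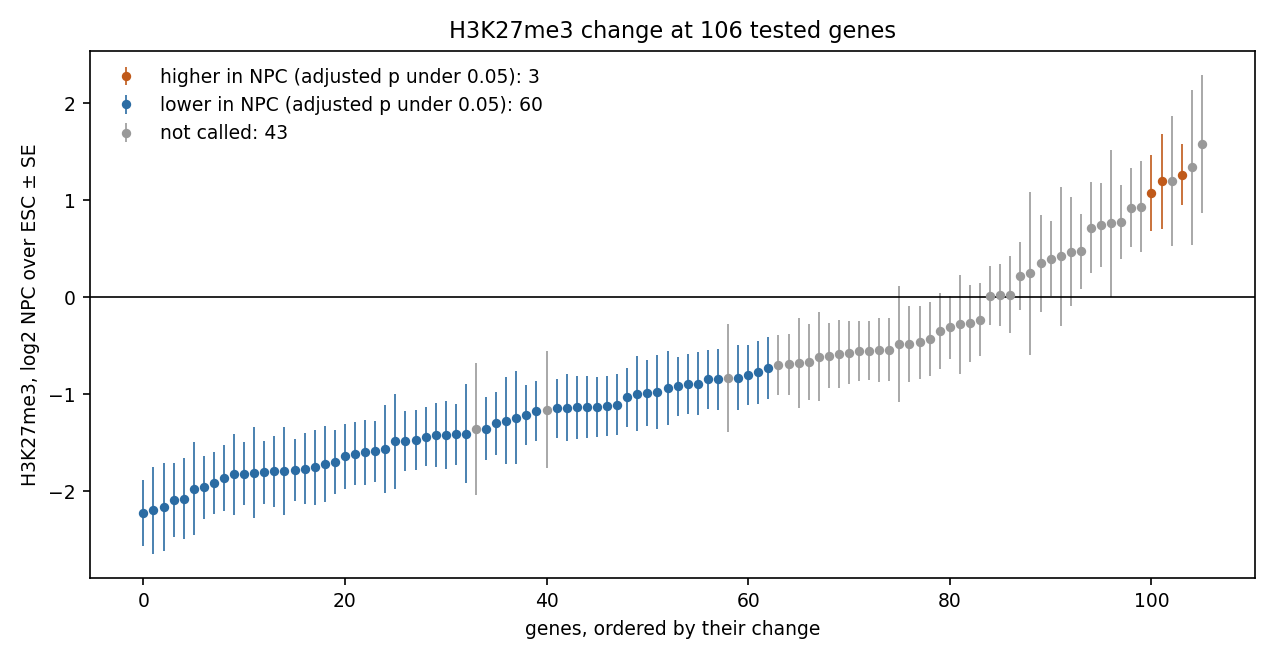
H3K27me3 change at the 106 tested genes, ordered along the horizontal axis, with the log2 NPC over ESC on the vertical axis and bars of 1 SE. The 60 genes called lower in NPC (blue) lie between -2.23 and -0.73, the 3 called higher (orange) at 1.07, 1.19 and 1.26, and the 43 genes without a call (grey) lie mostly between them, with some inside the blue range and some above the orange points.

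The largest falls were at Il22, Ccr6, Il24, Ccl1 and Il21r. Il22, which acts on epithelia, had 21.1 and 8.3 CPM of H3K27me3 in NPC against 55.9 and 92.6 CPM in ESC (log2 -2.23 ± 0.34, edgeR adjusted p = 4.5e-09). Ccr6, the receptor of Ccl20, had 25.5 and 23.6 CPM in NPC against 145.0 and 115.8 CPM in ESC (log2 -2.20 ± 0.45, edgeR adjusted p = 1.7e-05). Il24, a cytokine of the IL-10 family, had 26.6 and 24.2 CPM in NPC against 144.0 and 120.4 CPM in ESC (log2 -2.17 ± 0.45, edgeR adjusted p = 2.6e-05). All 3 genes had both NPC values far under both ESC values. Ccl1, a ligand of Ccr8, had 29.9 and 13.4 CPM in NPC and 97.3 and 100.4 CPM in ESC (log2 -2.09 ± 0.38, edgeR adjusted p = 1.1e-06). Il21r, the receptor of the T-cell cytokine IL-21, had 24.4 and 22.9 CPM in NPC and 123.2 and 109.6 CPM in ESC (log2 -2.08 ± 0.42, edgeR adjusted p = 1.0e-05).

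All 6 families held falls. They came to 12 of 19 CC ligands, 6 of 10 CC receptors, 6 of 12 tested CXC ligands, 3 of 6 CXC receptors, 20 of 30 interleukins and 13 of 29 tested interleukin receptors. The median levels were 19.6 CPM in NPC and 44.7 CPM in ESC for CC ligands, 22.2 and 61.1 CPM for interleukins, and 25.8 and 68.9 CPM for interleukin receptors. Among CC ligands the monocyte attractant Ccl2 fell by 1.48 ± 0.31 on the log2 scale, while Ccl5, an attractant of T cells, had a log2 value of -0.57 ± 0.32 (edgeR adjusted p = 0.13). Among CC receptors, Ccr7, which guides cells to lymph nodes, fell by 1.41 ± 0.51. Among interleukins, the anti-inflammatory Il10 fell by 1.03 ± 0.30, Il18 by 1.64 ± 0.34 and Il1b by 0.80 ± 0.31, whereas Il6 stood at -0.70 ± 0.31 (edgeR adjusted p = 0.052), Il2 at -0.35 ± 0.39, Il33 at 0.40 ± 0.38 and Il34 at 0.93 ± 0.47, none of the 4 being called. Among receptor chains Il2ra fell by 1.133 ± 0.308, Il10rb fell by 1.43 ± 0.33 and Il4ra fell by 1.28 ± 0.45, while Il7r (-0.48 ± 0.39), Il2rg (-0.685 ± 0.464) and Il11ra1 (0.03 ± 0.39) were not called.

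The 3 rises were small in number, under the background share of 22.9%, and all were receptors. Il13ra1, a chain of the IL-13 receptor, had 38.8 and 48.4 CPM in NPC against 18.6 and 26.3 CPM in ESC (log2 1.26 ± 0.315, edgeR adjusted p = 0.00043). Cxcr6 had 24.4 and 12.7 CPM in NPC against 8.3 and 9.3 CPM in ESC (log2 1.19 ± 0.49, edgeR adjusted p = 0.036), and Cxcr3 had 29.9 and 19.7 CPM in NPC against 11.4 and 15.4 CPM in ESC (log2 1.07 ± 0.39, edgeR adjusted p = 0.017). At Cxcr6 and Cxcr3 the mark was not above IgG in either cell type. With library totals or background windows as the scaling none of the 3 passed, and the same held without NPC replicate 2 or without ESC replicate 1. Without NPC replicate 1 the number of rises was 12.

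**Figure D3:**
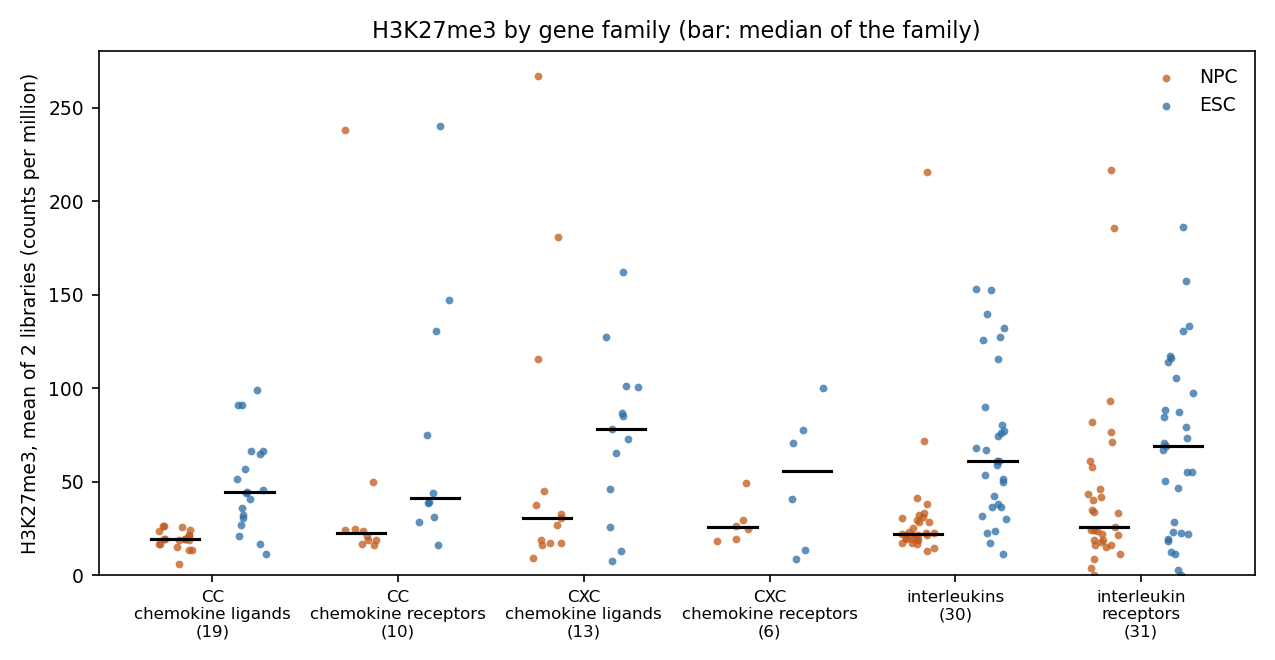
H3K27me3 by gene family, as the mean of 2 libraries in CPM, with 1 point per gene, NPC in orange at the left of each pair, ESC in blue at the right, a bar at the family median and the number of genes in brackets. The NPC medians lie below the ESC medians in all 6 families, for example at 19.6 against 44.7 CPM for CC ligands, and a few genes above 150 CPM stand apart in NPC.

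A small set had high H3K27me3 in NPC. Cxcl14 had 227.2 and 307.0 CPM in NPC and 135.7 and 118.9 CPM in ESC (log2 1.34 ± 0.80, edgeR adjusted p = 0.16). Il17ra, the common chain of IL-17 receptors, had 166.3 and 205.1 CPM in NPC and 90.1 and 105.0 CPM in ESC (log2 1.19 ± 0.67, edgeR adjusted p = 0.13). In both genes the NPC values exceeded the ESC values, but the difference did not pass the test. Cxcl12 had 160.7 and 200.7 CPM in NPC and 160.5 and 163.7 CPM in ESC (log2 0.42 ± 0.72), where the groups overlapped. Il15ra had 78.7 and 107.7 CPM in NPC and 174.0 and 140.5 CPM in ESC (log2 -0.49 ± 0.60, edgeR adjusted p = 0.51). High levels also stood at Ccr10, a receptor of skin-homing cells (238.3 CPM in NPC, 240.1 CPM in ESC), at Il11 (215.7 and 153.1 CPM), at Il27ra (216.6 and 87.5 CPM) and at Il10ra (71.4 and 186.1 CPM), and these 4 windows overlap those of other genes. Il13, a cytokine of type 2 immunity, had 71.9 CPM in NPC and 152.3 CPM in ESC, and none of these 5 passed the test of the difference.

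H3K4me3 and H3K27me3 were both above IgG at 2 members in NPC, Il15ra and Il7, and at 1 member in ESC, Cxcr4, where 4.05% and 2.29% of all windows had both. These counts hold for the main scaling, since the H3K4me3 calls over IgG rest on it. H3K27me3 at Cxcr4 was 48.8 and 49.7 CPM in NPC and 82.8 and 72.6 CPM in ESC (log2 -0.43 ± 0.38, edgeR adjusted p = 0.35). In NPC 3 members had higher H3K4me3 together with lower H3K27me3, and 6 had less of both marks. The share of all windows with such joint changes was not taken, so these counts cannot be called few or many.

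PRC2 subunits were called at few of these genes. SUZ12 was above IgG in ESC at Cxcl12 and Cxcr4 (5.67% of all windows) and MTF2 at Cxcl12, Cxcr4, Cxcl14 and Il17ra (9.1%). With the main scaling JARID2 was called at no window in either cell type, and SUZ12 and MTF2 at no window in NPC. Other scalings called some windows for SUZ12 and MTF2 in NPC and for JARID2 in ESC, but no member, so no member was named there. Without ESC replicate 1, 0 members passed for SUZ12 and 1 for MTF2. An unadjusted edgeR p below 0.05 with a log2 fold of at least 1 was also counted, over 107 tested members and all 23836 windows. In NPC it held at 2 members for SUZ12, 1 for MTF2 and 1 for JARID2, against 495, 650 and 140 of all windows. For JARID2 in ESC it held at 2 members, against 560 of all windows. Of the 54 members with H3K27me3 above IgG in ESC, 50 had neither SUZ12 nor MTF2 called, and 40 of these 50 fell in NPC. The 4 with a subunit called were not called lower, and this split by subunit was not made over all windows. Among all windows above IgG in ESC 48.4% fell, and this count shares the ESC H3K27me3 libraries with the call over IgG.

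At Cxcl12 SUZ12 had 68.7 and 46.8 CPM in NPC against 142.2 and 120.3 CPM in ESC (log2 -1.45 ± 0.24, edgeR adjusted p = 9.6e-08). At Cxcr4 it had 55.8 and 51.3 CPM in NPC against 135.2 and 90.7 CPM in ESC (log2 -1.37 ± 0.25, edgeR adjusted p = 7.6e-07). The NPC values lay near those of IgG, which had 53.9 CPM at Cxcl12 and 40.4 CPM at Cxcr4 in NPC and 36.9 CPM at both in ESC. MTF2 moved alike, with 54.6 and 61.9 CPM in NPC against 156.2 and 144.1 CPM in ESC at Cxcl12 (log2 -1.64 ± 0.47, edgeR adjusted p = 0.010). At Cxcr4 it had 50.1 and 61.9 CPM in NPC against 158.6 and 110.7 CPM in ESC (log2 -1.56 ± 0.44, edgeR adjusted p = 0.0095). Cxcl14 had lower values of both subunits in NPC, with log2 values of -0.87 ± 0.24 for SUZ12 and -1.48 ± 0.43 for MTF2. So Cxcl12 and Cxcl14 had less SUZ12 and MTF2 in NPC while the difference in H3K27me3 did not pass the test. SUZ12 at Cxcl14 was not above IgG in ESC with the main scaling. Its fall was not called with a minimum count of 30 or without NPC replicate 1. In NPC neither subunit was above IgG at any of 23836 windows with the main scaling, against 1352 windows for SUZ12 and 2169 for MTF2 in ESC. With library totals 177 windows passed for SUZ12 and 204 for MTF2 in NPC, against 1018 and 1435 in ESC. With background factors the counts were 133 and 165 in NPC, against 1858 and 3202 in ESC. Whether weaker NPC libraries account for these falls was not tested. Without NPC replicate 1 or without ESC replicate 1 no MTF2 fall passed.

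**Figure D4:**
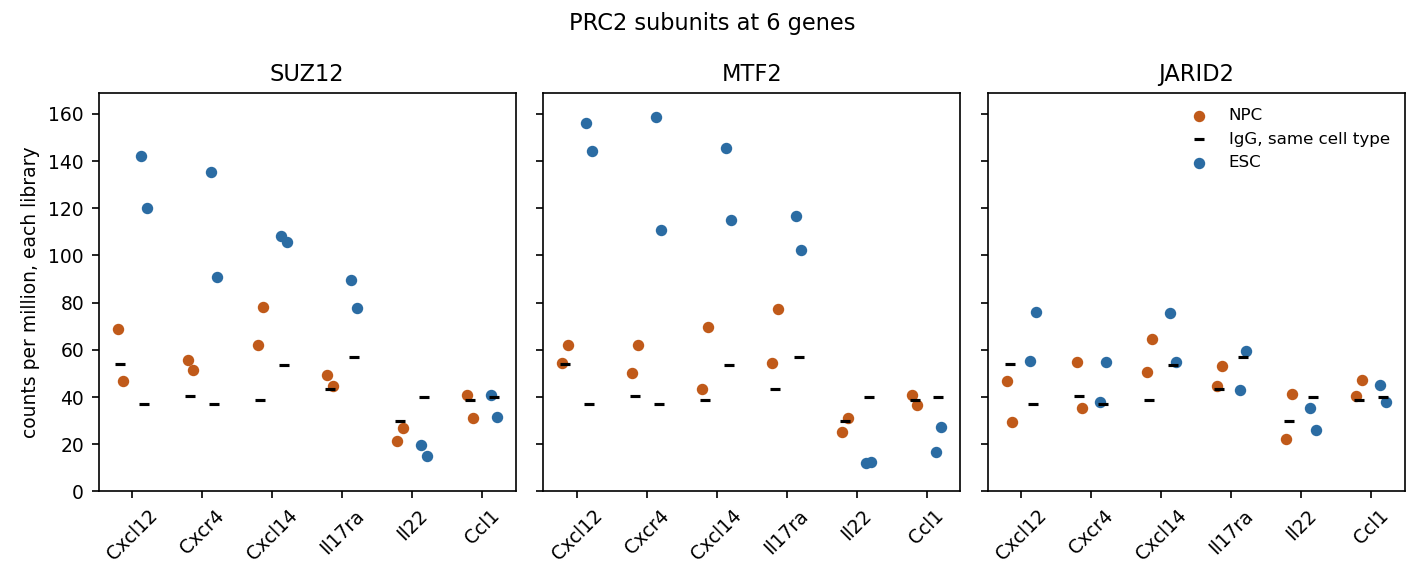
SUZ12, MTF2 and JARID2 in each library at Cxcl12, Cxcr4, Cxcl14, Il17ra, Il22 and Ccl1, in CPM on an axis from 0, with NPC in orange at the left of each pair, ESC in blue at the right and IgG of the same cell type as a black dash. SUZ12 and MTF2 in ESC lie well above the IgG dashes at Cxcl12 and Cxcr4, for example at 142.2 and 120.3 CPM for SUZ12 and 156.2 and 144.1 CPM for MTF2 at Cxcl12, and lie below the ESC dash at Il22.

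Over all members SUZ12 was lower in NPC at 6 of 101 and higher at 3, against 13.1% and 2.97% of all windows tested. The remaining falls were Ccr10 (-1.11 ± 0.23), Il17ra (-1.10 ± 0.26) and Il11 (-0.73 ± 0.26), and the rises were Il21r (1.11 ± 0.38), Ccr4 (1.05 ± 0.35) and Il31ra, a receptor of itch signalling (0.93 ± 0.26). None of the rises was above IgG in NPC, and the call of each was lost with some library left out. With 1 library left out, the log2 values ran from 0.88 to 1.29 at Il21r, 0.87 to 1.27 at Ccr4 and 0.78 to 1.04 at Il31ra. With factors from background windows Il21r and Ccr4 were not called, and DESeq2 did not call Il31ra. MTF2 was higher at 8 of 100 and lower at 3, against 3.28% and 8.89%. Its largest rises were at Ccr4 (56.9 and 54.1 CPM in NPC, 9.6 and 27.2 CPM in ESC, log2 1.48 ± 0.37), at Il5ra (1.38 ± 0.48), at Il20rb (1.33 ± 0.37), at the thymic chemokine Ccl25 (1.24 ± 0.42) and at Ccl22, a ligand of Ccr4 (1.21 ± 0.37). At these 5 genes the mean ESC level lay below that of ESC IgG, and with factors from background windows 1 rise was left of the 8. Left out in turn, any of NPC replicate 1, NPC replicate 2 and ESC replicate 1 left at most 2. JARID2 differed at 1 of 101 members, where 0.75% of all windows fell and 0.0792% rose: Il23a had 34.5 and 32.4 CPM in NPC against 88.1 and 69.0 CPM in ESC (log2 -1.24 ± 0.31, edgeR adjusted p = 0.020). Il23a was also called with the NPC JARID2 libraries summed and counted as 1 sample. It was not called without NPC replicate 1, NPC replicate 2 or ESC replicate 1.

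Many of these genes lie side by side, and neighbours within 500000 bp were grouped where at least 3 members stood together. The chemokine genes Ccl2, Ccl7, Ccl11, Ccl12, Ccl8 and Ccl1 on chromosome 11 lost H3K27me3 at 6 of 6 genes, with median levels of 18.3 CPM in NPC and 54.2 CPM in ESC. The IL-10 family cluster of Il24, Il20, Il19 and Il10 on chromosome 1 fell at 4 of 4 (19.5 and 52.7 CPM), and the interferon-induced Cxcl9, Cxcl10 and Cxcl11 on chromosome 5 at 3 of 3 (30.7 and 78.2 CPM). The receptors Il1r2, Il1r1 and Il18r1 on chromosome 1 fell at 3 of 3 (33.5 and 66.9 CPM). Other clusters were mixed. The type 2 cytokines Il4, Il13 and Il5 fell at 2 of 3, Ccl5, Ccl9, Ccl6, Ccl3 and Ccl4 at 2 of 5, and the neutrophil chemokines Cxcl5, Cxcl3, Cxcl1 and Cxcl2 at 2 of the 4 tested. No gene named in these clusters had H3K4me3 above IgG in either cell type with the main scaling, while with background factors Cxcl2, Cxcl3, Cxcl5, Il1r1 and Il1r2 passed in NPC and the first 4 of these also in ESC. Neighbours can share domains of the mark and are not independent.

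Cytokine and chemokine genes that the symbol rule left out were set beside the members. Of a list of 45, 42 had a window. H3K27me3 fell at 16 and rose at 7 of 41 tested, and H3K4me3 rose at 8 and fell at 14 of 36. H3K4me3 was above IgG at 6 of them in NPC and 5 in ESC. Ackr3, the scavenger receptor of Cxcl12, had 149.0 ± 21.0 CPM of H3K4me3 in NPC and 110.5 ± 0.8 CPM in ESC, and Il6st, the gp130 chain that also serves LIF, had 90.6 ± 2.3 CPM in NPC and 103.6 ± 4.6 CPM in ESC (SD, n = 2 each). Of 25 genes of the signalling pathways below these receptors, such as the JAK kinases and STAT factors, 15 had H3K4me3 above IgG in NPC and 16 in ESC with the main scaling, where 38.9% and 36% of all windows passed. The members had 3 of 107 in NPC and 1 in ESC with that scaling, and the difference between the lists was not tested.

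Other tissue-restricted families moved the same way in H3K27me3. Keratin genes fell at 45 of 50 and rose at 0, with a median log2 of -1.85, and 7 were above IgG in NPC and 42 in ESC. Olfactory receptor genes fell at 298 and rose at 4 of 897 tested, with a median log2 of -0.62, and 4 of 1088 were above IgG in NPC and 112 in ESC. The cytokine genes, at 56.6% lower and a median of -0.93, lay between these families. Leukocyte markers fell at 9 of 14, with medians of 21.9 CPM in NPC and 48.5 CPM in ESC. These counts are descriptions, and no difference between the families was tested.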

How the data were processed

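The deposited table held counts: per the file header and the values, whole numbers of reads per window and library, which the authors gave without normalization. The submitters' processing notes name the build mm10, Bowtie2 2.3.4.3 and Picard 2.19, with no role or settings. The counting program, filters and treatment of duplicates were not stated. Spike-in DNA of Drosophila was added per the labels' protocols, but without spike-in counts at hand a shift shared by every window could not be seen.

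For each antibody, NPC were compared with ESC by the quasi-likelihood test of edgeR 4.0.16 (R 4.3.3) on 4 libraries, after TMM scaling and a filter (filterByExpr, minimum count 10). For enrichment over IgG, all 22 libraries shared 1 fit, and a call needed a log2 fold of 1 or more. With 1 IgG library per cell type, that library was assumed to vary like the other groups, and these log2 values are TMM-scaled, so they differ from ratios of CPM. P-values were Benjamini-Hochberg adjusted over all windows tested and called below 0.05. They weigh each difference against the spread between replicates, which for IgG was taken from the other groups. Column endings b1 and b2 were read as replicates 1 and 2.

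Genes named were, per antibody, up to 5 called members per direction, by size of change, whose groups did not overlap, up to 10 members with the highest level among those above IgG for H3K4me3, SUZ12 or H3K27me3, and fixed landmarks such as Cxcl12, Ccl2, Il6 and Il2ra. MTF2 calls over IgG and the genes of position clusters were named after their values were seen. The symbol rule for the members used no measured value, but this rule and the lists were chosen with earlier results of these data known. Alternatives were DESeq2 1.42.0, other scalings, count minimums, windows without overlaps (5370 of 24467 overlap another), a replicate block, other IgG rules and each library left out. A summed JARID2 pair and a crossed block were added after seeing the data. Same-numbered libraries did not deviate together (correlations of -0.22 to 0.07), so the numbers were not treated as pairs. The test was tried on simulated counts. Results for some single genes are not reported here. Promoters came from RefSeq (GRCm38.p6), where all member transcripts were found under the same symbol.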

Additional observations from a re-analysis of the deposited data

How the results depend on the processing

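Over the 35 changes named per gene, no alternative reversed the direction, 305 alternative values kept their side of the threshold and 73 did not. These changes were picked as called ones whose groups did not overlap, and the alternatives reuse the same libraries. A reversal was thus unlikely from the start, and its absence is no measure of robustness. Settings that gave a gene no adjusted p were left out of these counts. Medians over all members did change sign: with background factors they were -0.10 for SUZ12 and -0.12 for MTF2, against 0.11 and 0.28 in the main setting, and without NPC replicate 2 that of H3K4me3 was 0.02, against -0.26. Counts of members that moved by over 1.5 times were these, and the cause was not tested beyond what fewer tested members show. DESeq2 gave 0 SUZ12 rises (10 members with an adjusted p), 0 JARID2 falls (6), 0 MTF2 rises (7) and 36 H3K27me3 falls (89). Library totals gave 8 SUZ12 rises, 11 members with H3K27me3 above IgG in NPC and 25 in ESC, 2 with MTF2 and 0 with H3K4me3 in ESC. Background factors gave 1 SUZ12 rise, 1 MTF2 rise, 9 MTF2 falls, 0 H3K27me3 rises, and H3K4me3 above IgG at 25 in NPC and 26 in ESC. A minimum count of 30 left 1 SUZ12 fall (9 tested), 0 JARID2 falls (5), 2 MTF2 rises (11), 28 H3K27me3 falls and 8 rises (80), and 0 members with H3K4me3 in ESC. Windows without overlaps gave 6 H3K27me3 rises and 7 members with H3K4me3 in NPC and 7 in ESC. A log2 fold of at least 2 over IgG left 11 members with H3K27me3 in NPC and 17 in ESC, 1 with SUZ12, 2 with MTF2 and 0 with H3K4me3 in ESC. IgG of both cell types gave 6 with SUZ12, 7 with MTF2 and 4 with H3K4me3 in ESC.

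With the replicate block MTF2 had 2 rises and 0 falls, against 8 and 3 without it, and H3K27me3 had 49 falls. The crossed replicate block gave 5 MTF2 falls and 62 H3K27me3 falls. Leaving out 1 library gave 0 to 2 SUZ12 rises and 4 to 6 falls, 0 to 1 JARID2 falls, 0 to 7 MTF2 rises and 0 to 4 falls, 0 to 12 H3K27me3 rises and 28 to 62 falls, and 7 to 11 H3K4me3 rises and 13 (without ESC replicate 1) to 31 falls. Above IgG it gave 0 to 2 members with SUZ12, 1 to 4 with MTF2 and 0 to 1 with H3K4me3 in ESC, 2 with H3K4me3 in NPC, and 13 to 22 in NPC and 36 to 53 in ESC with H3K27me3. Of all windows called, the share called higher in NPC was 18.4% for SUZ12, 54.1% with library totals and 4.95% with background factors. It was 26.9%, 59.4% and 2.65% for MTF2, 49.4%, 26.2% and 13.6% for H3K27me3, and 47.8%, 50.3% and 27.2% for H3K4me3. As a limit of depth, 3 counts equal 3.498 to 8.83 CPM in the SUZ12, MTF2 and JARID2 libraries and 10.05 CPM in the ESC IgG library, on which all ESC calls over IgG rest.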

Other observations

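Of the members 4 lie on chromosome X, and 2 of the 3 members with higher H3K27me3 in NPC, Il13ra1 and Cxcr3, are among them. Over chromosome X as a whole 37 of 461 windows tested were higher in NPC (8.03%) and 157 were lower, against 23.2% higher on the other chromosomes. The share of IgG counts on chromosome X was 1.72% in NPC and 1.65% in ESC. Among the related genes outside the symbol rule, Il17rd, a receptor of the IL-17 family known to dampen FGF signalling, had 60.3 ± 8.4 CPM of H3K27me3 in NPC and 8.003 ± 0.399 CPM in ESC (SD, n = 2 each), with H3K4me3 above IgG in both cell types.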
